A study of Mus musculus with 24 samples.

Results

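Aminoacyl-tRNA synthetases were followed across the 8 groups of an RNA sequencing study of HY19636, a cell line from mouse pancreatic ductal adenocarcinoma. The genes were chosen by symbol: 36 synthetase genes among the 54532 genes of the deposited table, of which 20 encode cytosolic or shared enzymes and 16, with symbols ending in 2, encode mitochondrial enzymes. All 36 were in the table, and all 36 passed the expression filter of at least 1 FPKM in at least 3 libraries (FPKM, reads per gene corrected for gene length and depth). The groups were Phgdh knockout (KO) cells in medium free of serine and glycine (SG-free), cocultured with hepatocytes or in monoculture without them, and KO cells in medium containing both amino acids (+SG), in the same 2 culture formats. Wild type (WT) cells were grown in the same 4 conditions, and each of the 8 groups had 3 libraries. The labels do not say how many KO clones were used, where the hepatocytes came from, or how the cancer cells were separated from them.

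Synthetases, most of them for 1 kind of amino acid, join amino acids to tRNAs, the charging step that precedes protein synthesis at the ribosome. The cytosol and the mitochondria hold separate tRNA pools, and most amino acids have a nuclear gene for each compartment, while Gars and Kars each encode both forms and mitochondrial glutaminyl-tRNA is made indirectly, from glutamate attached by Ears2. Several cytosolic enzymes are held in a multisynthetase complex by the scaffold proteins Aimp1, Aimp2 and Eef1e1. Uncharged tRNAs activate the kinase Gcn2, which raises translation of the transcription factor Atf4, and several cytosolic synthetase genes are known Atf4 targets. Phgdh catalyses the first step of serine synthesis from glucose, serine is converted to glycine, and Sars, Sars2 and Gars charge tRNAs with these amino acids.

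Upstream sequences were searched for TGATGNAA, the core of the composite sites that Atf4 and C/EBP partners bind, because the promoters can be set beside the changes of their genes. RefSeq promoter windows (GRCm38.p6) were matched for 27 of 36 genes, 13 cytosolic and 14 mitochondrial. On either strand of the 250 bases before the RefSeq start, TGATGNAA lay in 3 of 13 cytosolic and 0 of 14 mitochondrial promoters, against 1056 of 27025 promoters in the table (3.91%). The stricter TGATGCAA, a subset of these matches, lay in Aars and Tars, and in 248 of 27025 promoters (0.918%). The RefSeq start can differ from the start in the deposited table, and a match is a stretch of letters, not a measured binding site. The 150 bases before the start are shown for the 3 genes with a match, which reads here as its reverse complement in capitals, and for Qars, the gene with the largest fall, which had none. These windows are chr8:111033692-111033841 on the plus strand for Aars, chr15:11399659-11399808 on the minus strand for Tars, chr6:55037851-55038000 on the plus strand for Gars and chr9:108507855-108508004 on the plus strand for Qars.
Aars: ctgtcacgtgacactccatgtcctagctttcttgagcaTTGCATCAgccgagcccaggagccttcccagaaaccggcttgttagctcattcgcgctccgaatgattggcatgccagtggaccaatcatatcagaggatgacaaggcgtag
Tars: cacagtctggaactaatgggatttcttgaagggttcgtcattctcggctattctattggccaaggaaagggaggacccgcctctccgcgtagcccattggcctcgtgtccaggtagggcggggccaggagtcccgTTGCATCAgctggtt
Gars: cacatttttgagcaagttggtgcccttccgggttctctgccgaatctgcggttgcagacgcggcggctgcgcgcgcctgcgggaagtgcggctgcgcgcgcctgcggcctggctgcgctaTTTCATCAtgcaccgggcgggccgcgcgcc
Qars: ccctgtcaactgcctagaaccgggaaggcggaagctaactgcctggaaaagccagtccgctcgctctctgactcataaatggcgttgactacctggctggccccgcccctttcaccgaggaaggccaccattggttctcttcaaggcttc

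The match lay 112 bases before the start in Aars, 15 in Tars and 30 in Gars, counted to the start of the match. In the KO monocultures, loss of serine and glycine from the medium went with log2 changes of 1.27 for Aars, 0.44 for Tars and 0.048 for Gars. Aars and Tars passed the test described below and Gars, with an adjusted p of 0.327, did not. Yars (log2 change 1.19), Dars (0.77), Iars (0.58), Farsa (0.54), Kars, Eprs (0.32) and Mars (0.16) rose without these letters in their windows. Farsb and Sars, also without them, did not pass, and Qars fell. Lars, Nars, Wars and Hars rose, but no window was matched for them.

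Depth, recovered from the deposited values, ran from 15740081 to 23479425 reads per library. The total to which the deposited FPKM were scaled was 0.969 to 1.07 times a library's summed reads, and the labels do not say how it was set. It was 0.969 to 1.003 times the summed reads in cocultures and 1.002 to 1.07 times in monocultures, so small culture differences depend on it. Median-of-ratios factors of the deposited FPKM were equal, at 1.01, in all 24 libraries. Values already scaled by median of ratios would give such equal factors, so they are no separate check of balance. Replicates of a group differed by more than counting error in every pair (chi-square per degree of freedom 2.99 to 65.7). They differed most between replicate 1 of the +SG KO monocultures and the other 2 (65.7 and 53.04). Other high values were those of replicates 1 and 2 of the SG-free KO cocultures (41.1), replicate 1 of the SG-free KO monocultures and the other 2 (18.2 and 14.1), and replicate 3 of the SG-free KO cocultures and the other 2 (15.5 and 13.8). Phgdh transcript averaged 716 ± 106 FPKM in KO against 1311 ± 83.02 FPKM in WT SG-free cocultures, 695 ± 68.6 against 800.4 ± 15.5 in SG-free monocultures (SD, n = 3 each). With serine and glycine it averaged 874 ± 9.34 FPKM in KO against 1300.0 ± 55.2 FPKM in WT cocultures, and 483 ± 96.6 against 922 ± 16.6 in monocultures. Its log2 changes between KO and WT were −0.88, −0.21, −0.57 and −0.95 in the same order. The SG-free monoculture value missed the limma threshold (adjusted p = 0.115). With replicate 1 of both KO monoculture groups and either replicate 1 or replicate 2 of the SG-free KO cocultures left out, an alternative added after seeing the data, 31 and 32 synthetases passed on withdrawal in KO monocultures, against 31 with all libraries. Which part of Phgdh was edited is not stated in the labels, and a transcript level does not measure the protein. Of 14 hepatocyte markers, Hnf4a was the one at or above 1 FPKM, and 9 to 11 of the 14 were at 0 in every library of a group. The summed hepatocyte list ran at 36.7 to 40.7 FPKM in SG-free and 24.9 to 26.9 FPKM in +SG KO cocultures. It ran at 17.8 to 19.4 FPKM in SG-free and 13.4 to 16.7 FPKM in +SG KO monocultures, and 16.8 to 21.95 FPKM over the WT libraries. Ductal epithelial markers, the identity of the line, were present in every group. All 5 genes had a mean of at least 1 FPKM in +SG KO cocultures, and 4 of them did in each other group. Led by Krt18, the 5 genes summed to 4197 to 4373 FPKM in SG-free KO monocultures against 1458 to 1702 FPKM in +SG KO monocultures. The same sum was 3671 to 3973 FPKM in SG-free and 3339.6 to 3371 FPKM in +SG KO cocultures, 932 to 1023 FPKM in WT monocultures and 2019.7 to 2182.1 FPKM in WT cocultures. Of 6 macrophage markers Cd68 led, at a mean of 0.845 FPKM in SG-free and 3.44 FPKM in +SG KO monocultures, and a group mean of at most 8.74 FPKM in WT cells. The part of these marker lists in the synthetase results was not tested, and in bulk RNA fewer cells of a type and less RNA per cell cannot be told apart.

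Cytosolic synthetases were the more abundant class per length in every group. Over the 24 libraries their mean level ran from 12.5 FPKM (Farsa) to 266 FPKM (Nars), with a median gene at 45.1 FPKM, against 0.919 FPKM (Mars2) to 23.5 FPKM (Lars2) and a median of 3.73 FPKM for the mitochondrial enzymes. By group means, Nars (asparaginyl) ran at 222 to 479.7 FPKM, Sars (seryl) at 222 to 279.5, and Gars (glycyl) at 193 to 231 FPKM. Wars (tryptophanyl) ran at 133 to 269, Rars (arginyl) at 69.4 to 98.6, Iars (isoleucyl) at 51.1 to 107 and Lars (leucyl) at 38.7 to 120.3 FPKM. Aars (alanyl) ran at 42.3 to 109 FPKM, Kars (lysyl) at 39.9 to 58.8, and Farsb (the beta chain of the phenylalanyl enzyme) at 36.7 to 53.2 FPKM. Tars (threonyl) ran at 35.2 to 64.8, Vars (valyl) at 34.5 to 52.6, Cars (cysteinyl) at 31.04 to 49.5 and Qars (glutaminyl) at 11.6 to 46.9 FPKM. Yars (tyrosyl) ran at 23.8 to 71.2 FPKM, Eprs (glutamyl and prolyl in 1 chain) at 24.6 to 41.4, and Mars (methionyl) at 25.8 to 31.4 FPKM. Hars (histidyl) ran at 20.4 to 37.6, Dars (aspartyl) at 19.2 to 33.4 and Farsa (the phenylalanyl alpha chain) at 8.60 to 17.01 FPKM. The widest of these ranges relative to their lowest value were those of Qars, Lars and Yars.

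The mitochondrial enzymes, in the same order of mean level, ran by group means at 15.3 to 31.2 FPKM for Lars2, 8.72 to 10.97 for Iars2, 6.34 to 15.2 for Yars2 and 4.84 to 12.7 FPKM for Vars2. The ranges were 4.33 to 10.1 FPKM for Wars2, 3.98 to 8.01 for Tars2, 2.12 to 11.2 for Rars2 and 2.37 to 5.31 FPKM for Sars2. Hars2 ran at 2.95 to 4.61 FPKM, Fars2 at 1.47 to 4.17, Aars2 at 2.27 to 4.38 and Pars2 at 1.28 to 3.25 FPKM. Ears2 ran at 1.43 to 3.41, Cars2 at 0.695 to 1.91, Nars2 at 0.787 to 1.49 and Mars2 at 0.384 to 2.19 FPKM. Each is named for the amino acid of its cytosolic counterpart, with Pars2 and Ears2 the separate prolyl and glutamyl enzymes. Neighbours in either order often overlapped: over the 24 libraries, Lars ran from 37.4 to 130 FPKM and Aars from 41.8 to 114 FPKM. The 12 WT libraries were even, with a highest-to-lowest ratio of 1.15 for the median cytosolic gene (1.06 to 1.34) and 1.52 for the median mitochondrial gene (1.20 to 1.86). The lowest genes rest on few reads: Pars2 had 46 to 232 reads and Mars2 65 to 456 reads per library, against 19221 to 30116 for Sars.

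Summed over the 20 cytosolic genes, SG-free KO monocultures stood above every other group. They reached 2091 ± 24.5 FPKM against 1499.7 ± 45.9 FPKM in +SG KO monocultures and 1419 ± 23.3 FPKM in SG-free WT monocultures (SD, n = 3 each), ratios of 1.39 and 1.47. The sum was 1663 ± 36.7 FPKM in SG-free and 1521 ± 6.90 FPKM in +SG KO cocultures, a ratio of 1.09. The other WT sums were 1431 ± 10.7 FPKM in SG-free cocultures, 1458 ± 13.2 FPKM in +SG cocultures and 1440.3 ± 2.38 FPKM in +SG monocultures. The 16 mitochondrial genes together reached 106 ± 3.49 FPKM in SG-free against 83.0 ± 7.07 FPKM in +SG KO monocultures, a ratio of 1.28, and 104 ± 4.34 FPKM in SG-free WT monocultures, a ratio of 1.02. In KO cocultures the mitochondrial sum was 73.0 ± 7.56 FPKM in SG-free and 79.9 ± 2.82 FPKM in +SG medium. The other WT mitochondrial sums were 90.8 ± 1.17 FPKM in SG-free cocultures, 94.2 ± 4.36 FPKM in +SG cocultures and 97.4 ± 3.16 FPKM in +SG monocultures, the last above the 83.0 FPKM of +SG KO monocultures. These sums are led by the most abundant genes, Nars among the cytosolic and Lars2 among the mitochondrial enzymes.

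**Figure D1:**
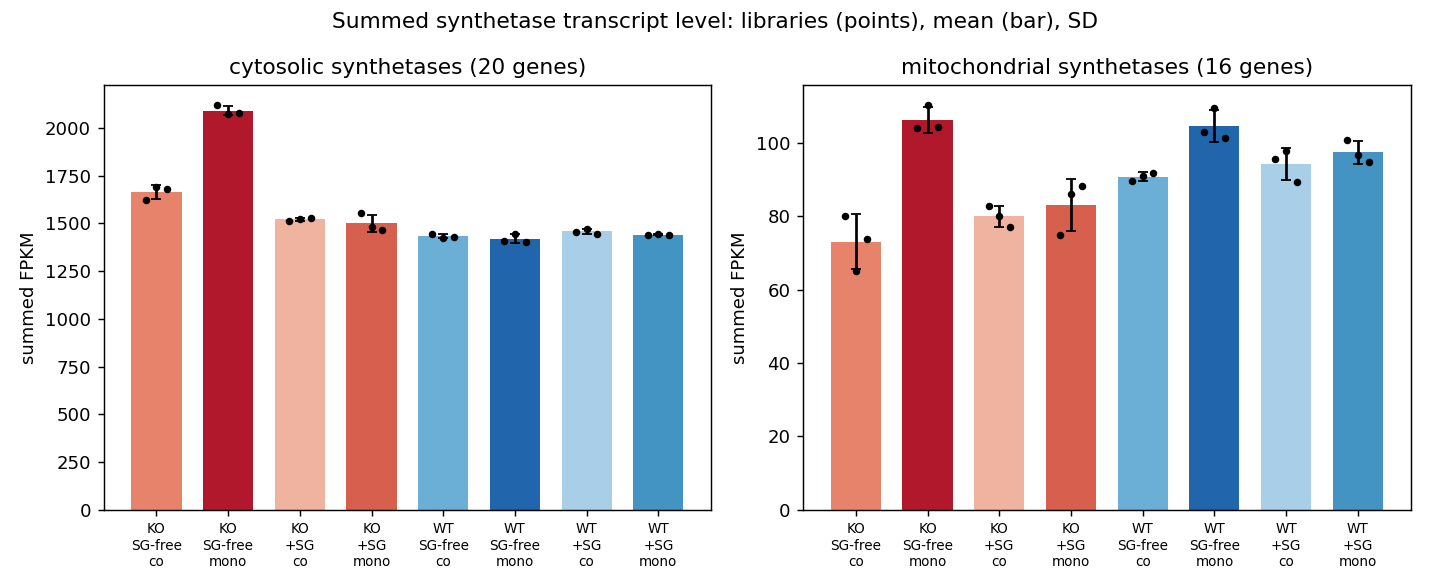
Summed FPKM of the cytosolic and of the mitochondrial synthetase genes in the 8 groups, as bars of the mean from 0 with SD and 1 point per library (n = 3). The cytosolic sum of SG-free KO monocultures, 2091 FPKM, is the highest, while their mitochondrial sum of 106 FPKM lies beside that of SG-free WT monocultures at 104 FPKM.

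Withdrawal in KO monocultures changed most synthetase transcripts, as it did most tested genes, in both directions. Of the 36 genes, 22 rose and 9 fell in SG-free against +SG KO monocultures by limma at an adjusted p under 0.05 over the 12061 genes tested, where 36.2% of all tested genes rose and 34.5% fell. Among cytosolic genes 13 rose, 3 fell and 4 did not pass, and among mitochondrial genes 9 rose, 6 fell and 1 did not pass. The median log2 change was 0.47 for cytosolic and 0.35 for mitochondrial genes, against 0.0042 for all tested genes, and the libraries of the 2 groups did not overlap for 29 of the 36, against 67.2% of all tested genes. The 3 SG-free KO monoculture libraries lay outside all other 21 libraries for 13 cytosolic genes, above them for 11 and below them for Cars and Qars, and for 8 mitochondrial genes. Over all tested genes they lay above the other 21 for 23.5% and below for 21.0%. Of the 8 mitochondrial genes they were above for Yars2, Tars2, Rars2, Ears2 and Mars2, and below for Wars2, Fars2 and Pars2. All log2 changes are on the log2(FPKM + 1) scale, which understates changes of the genes near 1 FPKM.

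Lars, Aars, Yars and Nars led the cytosolic rises. Lars, which charges leucine tRNAs, had 129.9, 115 and 116 FPKM in the 3 SG-free KO monocultures, against 52.99, 47.1 and 47.6 FPKM in the +SG KO monocultures, a log2 change of 1.27 ± 0.064 (SE; limma adjusted p = 1.12e-12). Aars, the alanine enzyme (ENSMUSG00000031960, chr8:111033144-111057664, plus strand, GRCm38), had 103, 114 and 110.4 FPKM in SG-free and 45.2, 43.5 and 45.5 FPKM in +SG KO monocultures (log2 change 1.27 ± 0.042, adjusted p = 2.29e-15). Both genes were far above their +SG values in all 3 SG-free libraries, with no overlap. Yars, the tyrosine enzyme (ENSMUSG00000028811, chr4:129189760-129219607, plus strand), had 68.3, 72.9 and 72.3 FPKM in SG-free and 30.4, 31.7 and 29.9 FPKM in +SG KO monocultures (log2 change 1.19 ± 0.041, adjusted p = 4.44e-15). Nars, the asparagine enzyme and the most abundant member, had 511, 457 and 472 FPKM in SG-free and 242, 212 and 211 FPKM in +SG KO monocultures (log2 change 1.11 ± 0.055, adjusted p = 8.02e-13). For these genes as well the lowest SG-free library stood clear of the highest +SG library. The 9 smaller cytosolic rises ran from 0.16 for Mars to 0.77 for Dars, with Wars, Iars, Hars, Farsa, Kars, Tars and Eprs between them.

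Qars fell furthest of the 36. This glutamine enzyme (ENSMUSG00000032604, chr9:108507706-108515941, plus strand) had 11.2, 12.7 and 10.9 FPKM in SG-free KO monocultures, against 45.6, 42.9 and 42.9 FPKM in +SG KO monocultures, a log2 change of −1.83 ± 0.051 (limma adjusted p = 1.70e-16). Every other library of the study, KO cocultures included, held Qars at 32.4 to 47.98 FPKM. Cars, the cysteine enzyme (ENSMUSG00000010755, chr7:143557230-143600090, minus strand), had 31.1, 31.4 and 30.6 FPKM in SG-free and 48.6, 49.6 and 50.4 FPKM in +SG KO monocultures (log2 change −0.66 ± 0.037, adjusted p = 5.42e-12). Rars, the arginine enzyme, passed the test with a fall of −0.18 ± 0.067 (adjusted p = 0.0199), but its libraries overlapped. Without replicate 1 of the +SG KO monocultures the value was −0.090 with an adjusted p of 0.158, and without replicate 2 or replicate 3 of the SG-free KO monocultures the adjusted p was 0.0914 and 0.0612. Vars, the valine enzyme, did not pass (log2 change −0.34 ± 0.15, adjusted p = 0.0515), while without replicate 1 of the +SG KO monocultures it was −0.58 with an adjusted p of 0.000166. With the replicate numbers as a block, taken here to pair the libraries, its adjusted p was 0.0638 with all groups in the fit and 0.0461 with only these 2. Eprs rose by 0.32 ± 0.087 with overlapping libraries (adjusted p = 0.00301), and its adjusted p ran from 2.99e-06 to 0.198 over 18 alternative settings, the highest under quantile normalization.

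The cytosolic enzymes of the withdrawn amino acids did not pass the test. Sars, the serine enzyme, averaged 252 ± 2.66 FPKM in SG-free and 238 ± 3.15 FPKM in +SG KO monocultures (log2 change 0.084 ± 0.043, adjusted p = 0.0875). Its libraries in these 2 groups did not overlap, as for 67.2% of all tested genes. The SE drew on the spread in all 8 groups. Gars, the glycine enzyme, averaged 199 ± 5.76 FPKM in SG-free and 193 ± 11.6 FPKM in +SG KO monocultures (log2 change 0.048 ± 0.043, adjusted p = 0.327). Farsb, at 0.042, did not pass either. Sars2, the mitochondrial serine enzyme, fell to 1.94, 2.21 and 2.97 FPKM in SG-free KO monocultures, against 3.73, 4.87 and 4.84 FPKM in +SG KO monocultures (log2 change −0.70 ± 0.13, adjusted p = 7.33e-05).

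Mitochondrial enzymes split into a larger group that rose and a smaller one that fell. Rars2, for arginine (ENSMUSG00000028292, chr4:34614957-34660167, plus strand), had 11.6, 11.2 and 10.7 FPKM in SG-free and 3.63, 2.72 and 2.96 FPKM in +SG KO monocultures, a log2 change of 1.58 ± 0.091 (limma adjusted p = 8.93e-12). This was the largest rise of the 36. Mars2, for methionine, had 2.30, 2.02 and 2.26 FPKM in SG-free and 0.613, 0.583 and 0.483 FPKM in +SG KO monocultures (log2 change 1.03 ± 0.077, adjusted p = 3.77e-10). Lars2, for leucine, had 31.6, 33.3 and 28.6 FPKM in SG-free and 13.7, 19.5 and 22.4 FPKM in +SG KO monocultures (log2 change 0.74 ± 0.22, adjusted p = 0.00522). Replicate 1 of the +SG KO monocultures held the lowest Lars2 value here, and without it the change was 0.55 with an adjusted p of 0.0381. The SG-free Lars2 levels lay within the WT range of 19.02 to 35.5 FPKM, unlike those of Rars2 and Mars2, which lay above every WT library. Yars2 (0.73), Tars2 (0.57), Ears2 (0.49), Nars2 (0.38), Hars2 (0.35) and Iars2 (0.14) rose as well.

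Fars2, for phenylalanine (ENSMUSG00000021420, chr13:36117412-36726280, plus strand), led the mitochondrial falls with 1.14, 1.79 and 1.49 FPKM in SG-free and 4.02, 4.07 and 4.41 FPKM in +SG KO monocultures (log2 change −1.07 ± 0.088, adjusted p = 1.87e-09). Wars2, for tryptophan (ENSMUSG00000004233, chr3:99141068-99239186, plus strand), had 5.10, 3.82 and 4.07 FPKM in SG-free and 9.23, 8.57 and 8.81 FPKM in +SG KO monocultures (log2 change −0.90 ± 0.091, adjusted p = 3.92e-08). Pars2, for proline, had 1.56, 1.34 and 0.932 FPKM in SG-free and 2.24, 3.08 and 2.86 FPKM in +SG KO monocultures (log2 change −0.71 ± 0.11, adjusted p = 8.57e-06). For all 3 genes the SG-free KO monoculture libraries were below every other library of the study. Vars2 (−0.52) and Cars2 (−0.21) fell too, the Cars2 libraries overlapping. Aars2 (0.35, adjusted p = 0.0548) did not pass but did under 7 of 17 alternative settings, where its adjusted p ran from 0.0127 to 0.252.

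**Figure D2:**
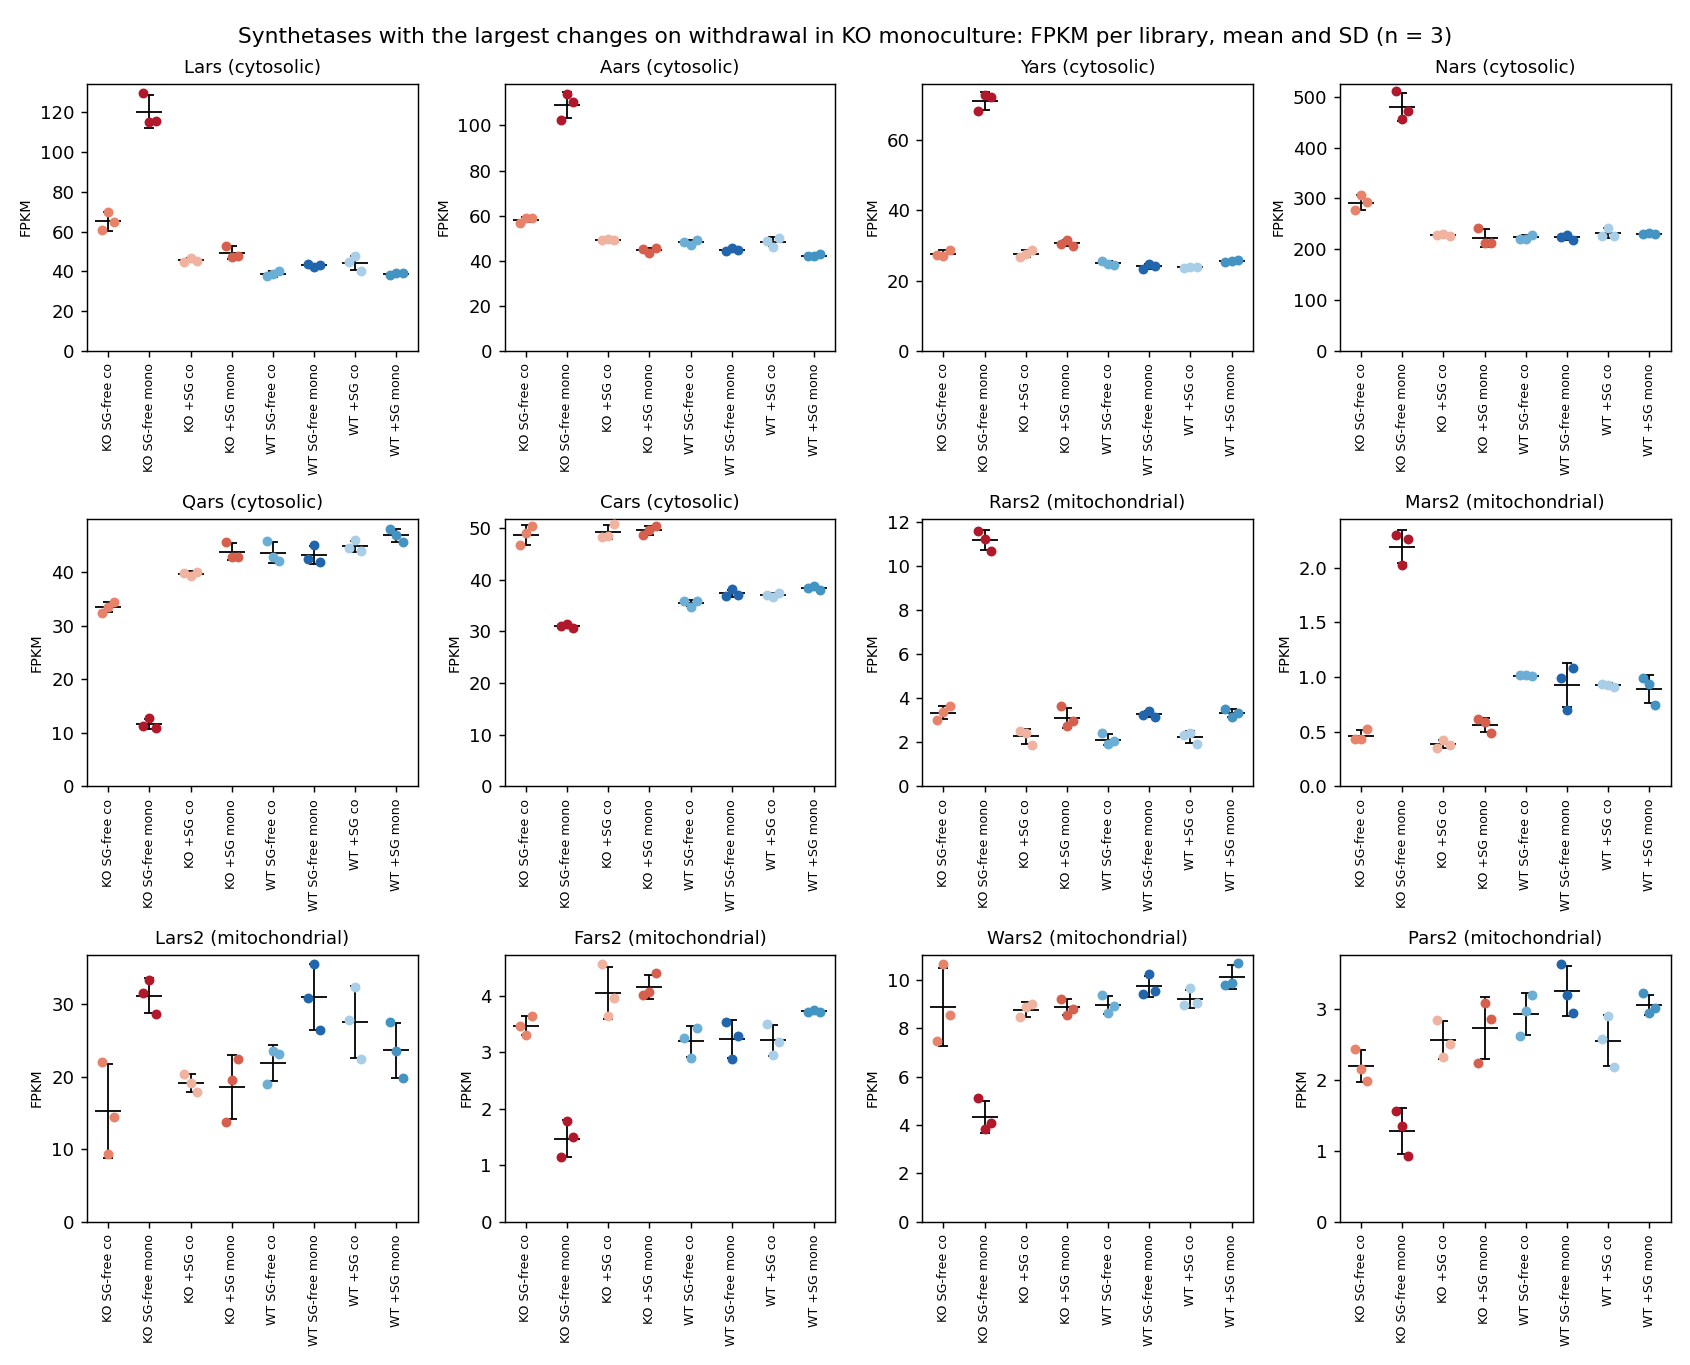
FPKM in each of the 24 libraries for the 12 synthetases with the largest rises and falls in the KO monoculture withdrawal comparison, 1 panel per gene with its own axis, points for libraries and bars for mean and SD (n = 3). SG-free KO monocultures stand apart from the 7 other groups in most panels, for example at 10.9 FPKM at the lowest for Qars, and the WT groups lie close to each other.

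Enzymes for the same amino acid did not always move together. Of 17 cytosolic and mitochondrial pairs, both genes rose in 8, both fell in Cars and Cars2, and the genes moved in opposite directions in 4, namely Eprs and Pars2, Farsa and Fars2, Rars and Rars2, and Wars and Wars2. In the other 4 pairs 1 or no gene passed. Of all tested genes 36.2% rose and 34.5% fell in this KO monoculture withdrawal comparison, and pairs of other genes were not counted. By enzyme class, which refers to the fold of the catalytic domain, 12 of 19 class I genes rose and 6 fell, and 10 of 17 class II genes rose and 3 fell. Eprs, whose glutamyl part is class I and whose prolyl part is class II, was counted as class I. Of the 8 synthetases of the multisynthetase complex, Lars, Dars, Iars, Kars, Eprs and Mars rose, and Qars and Rars fell. Of its 3 scaffold genes, Aimp2 rose to 45.4 ± 3.40 FPKM in SG-free KO monocultures, against 17.04 ± 1.62 FPKM in +SG KO monocultures (log2 change 1.36 ± 0.11, adjusted p = 8.06e-10). Eef1e1 rose by 0.50, and Aimp1 (0.14, adjusted p = 0.107) did not pass.

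Withdrawal in WT monocultures changed none of the synthetases past the threshold. By limma 0 of 36 rose and 0 fell, against 1.37% and 0.257% of all tested genes, 3 had an unadjusted p under 0.05, voom on the recovered reads called 0, and the smallest adjusted p was 0.226. The log2 changes ran from −0.16 for Fars2 to 0.38 for Lars2. Sars (−0.027 ± 0.043, adjusted p = 0.903), Gars (−0.054 ± 0.043, adjusted p = 0.701) and Sars2 (0.042 ± 0.13, adjusted p = 0.96) did not pass. The difference between the KO and the WT response, tested as an interaction, was positive for 18 synthetases and negative for 9, against 31.4% and 29.8% of all tested genes. It was 1.27 ± 0.058, adjusted p = 8.40e-13 for Yars and 1.18 ± 0.059, adjusted p = 3.56e-12 for Aars. Next were 1.15 ± 0.077, adjusted p = 1.99e-10 for Nars and 1.13 ± 0.091, adjusted p = 2.75e-09 for Lars. Negative cytosolic terms were −1.71 ± 0.072, adjusted p = 2.60e-13 for Qars, −0.62 ± 0.052, adjusted p = 5.00e-09 for Cars and −0.52 ± 0.21, adjusted p = 0.0404 for Vars. The Vars term was lost without any 1 of 9 libraries, among them all 6 WT monocultures, and its adjusted p ran from 5.52e-06 to 0.13 over the alternatives. Among mitochondrial genes it was 1.60 ± 0.13, adjusted p = 2.92e-09 for Rars2, 1.01 ± 0.11, adjusted p = 1.44e-07 for Mars2, and 0.75 ± 0.12, adjusted p = 1.97e-05 for Yars2. It was negative for others, −0.91 ± 0.13, adjusted p = 3.70e-06 for Fars2, −0.85 ± 0.13, adjusted p = 1.31e-05 for Wars2 and −0.78 ± 0.15, adjusted p = 0.000221 for Pars2. Sars2 had −0.75 ± 0.18, adjusted p = 0.00159, while Sars (0.11, adjusted p = 0.121) and Gars (0.10, adjusted p = 0.155) did not pass.

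With hepatocytes present, withdrawal in KO cells changed fewer genes than in monoculture, over all tested genes as among the synthetases. In SG-free against +SG KO cocultures 7 rose and 2 fell, where 15.5% of all tested genes rose and 14.4% fell. Lars (0.51 ± 0.064, adjusted p = 1.05e-05) and Nars (0.36 ± 0.055, adjusted p = 9.23e-05) led the cytosolic rises. Dars (0.28 ± 0.077, adjusted p = 0.00986) and Rars (0.24 ± 0.067, adjusted p = 0.0106) came next, followed by Iars and Aars at 0.23 each. Lars averaged 65.2 ± 4.69 FPKM in SG-free and 45.5 ± 0.983 FPKM in +SG KO cocultures. Qars (−0.24 ± 0.051, adjusted p = 0.00177) was the cytosolic fall, with 33.4 ± 0.960 FPKM in SG-free and 39.7 ± 0.450 FPKM in +SG KO cocultures. Rars2 rose (0.41 ± 0.091, adjusted p = 0.00264) and Sars2 fell (−0.39 ± 0.13, adjusted p = 0.0305) among mitochondrial genes. Sars (0.042, adjusted p = 0.481) and Gars (−0.0048, adjusted p = 0.946) did not pass, nor did Yars, at 0.001 with an adjusted p of 0.991. Without replicate 1 of the SG-free KO cocultures 14 synthetases passed in place of 9. Without replicate 2 of that group the changes of Dars (0.20), Rars (0.21) and Sars2 (−0.28) missed the threshold, as did Sars2 without replicate 1 (−0.40) or replicate 2 (−0.34) of the +SG KO cocultures.

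In WT cocultures 0 of 36 rose and 0 fell on withdrawal by limma, against 0.439% and 0.298% of all tested genes, 3 had an unadjusted p under 0.05, voom called 0, and the smallest adjusted p was 0.266. Sars (−0.018 ± 0.043, adjusted p = 0.951), Gars (−0.036 ± 0.043, adjusted p = 0.873) and Sars2 (−0.01 ± 0.13, adjusted p = 1) did not pass. The KO and WT coculture responses differed for 7 synthetases, 6 with a positive and 1 with a negative interaction term, against 8.06% and 6.38% of all tested genes. The largest cytosolic terms were those of Lars (0.70 ± 0.091, adjusted p = 6.73e-05) and Nars (0.41 ± 0.077, adjusted p = 0.00189). Dars (0.34 ± 0.11, adjusted p = 0.0416) and Rars (0.33 ± 0.094, adjusted p = 0.0242) followed. The others were Aars (0.24), Rars2 (0.46 ± 0.13, adjusted p = 0.024) and, with the negative term, Yars2 (−0.40 ± 0.12, adjusted p = 0.0293). The terms of Sars (0.06, adjusted p = 0.509), Gars (0.031, adjusted p = 0.745) and Sars2 (−0.38, adjusted p = 0.162) did not pass. The count of 7 fell to 3 without replicate 2 of the SG-free KO or of the +SG WT cocultures, and to 4 without replicate 3 of the SG-free KO or replicate 1 or 2 of the SG-free WT cocultures. Over the alternatives the adjusted p ran from 0.000331 to 0.124 for Dars and 0.000162 to 0.0674 for Rars. For the mitochondrial genes it ran from 0.00298 to 0.0671 for Rars2 and 0.0128 to 0.0804 for Yars2.

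**Figure D3:**
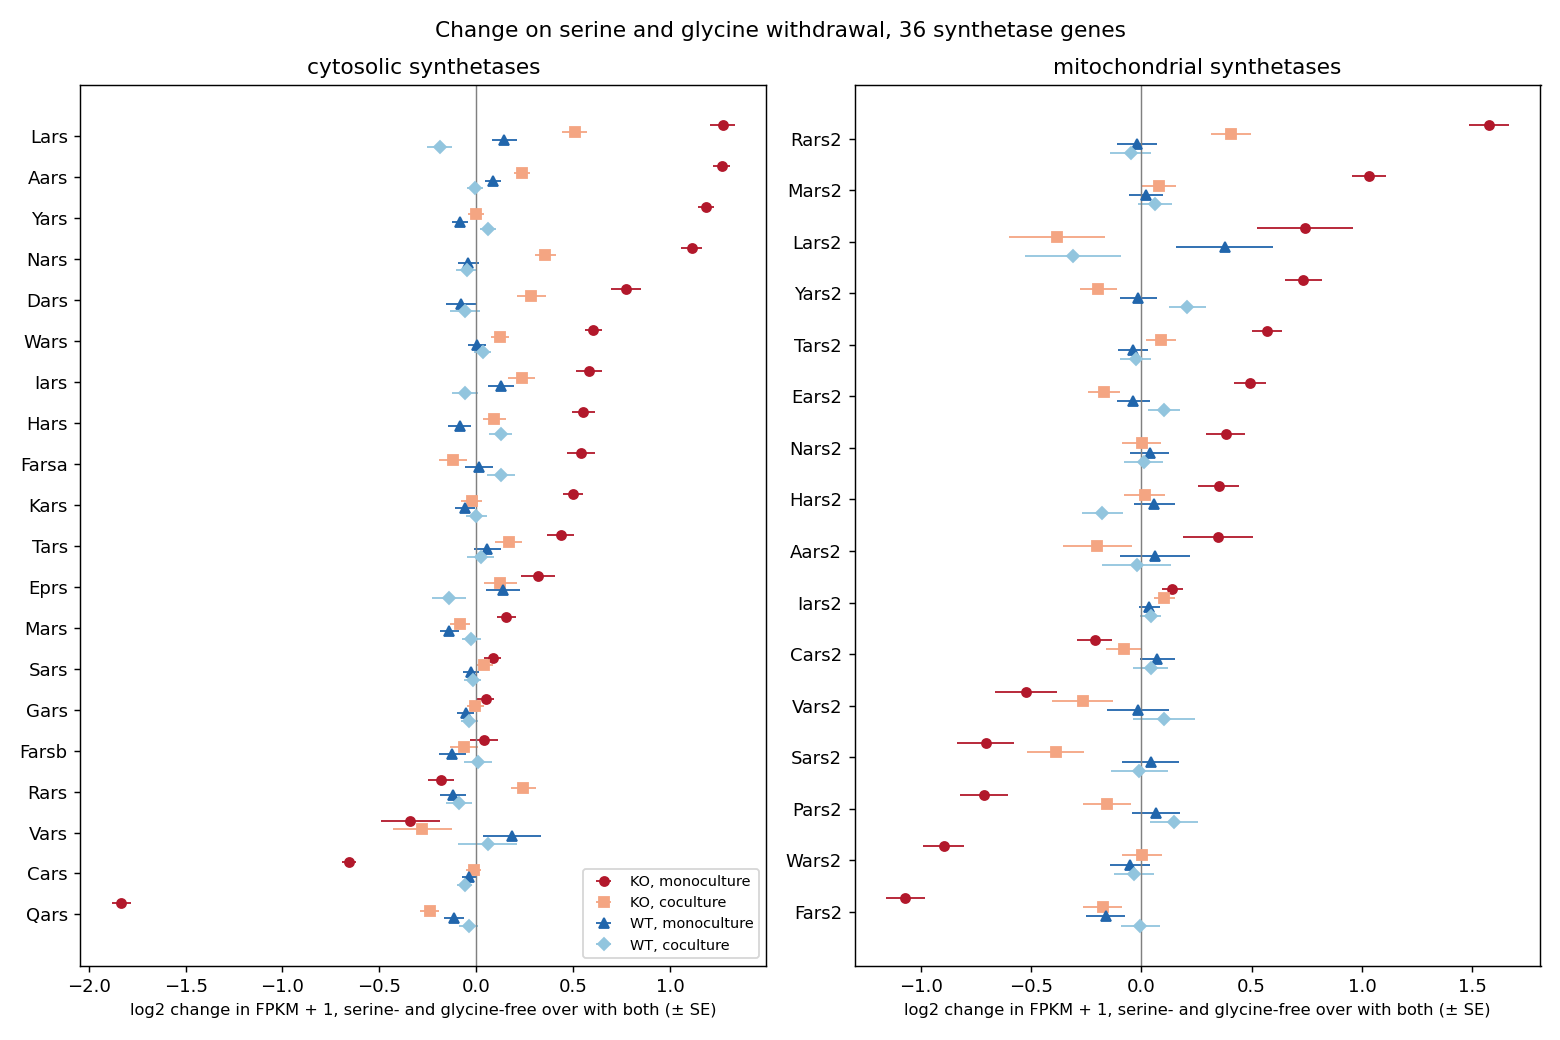
Log2 change (SG-free over +SG, log2(FPKM + 1) scale) with SE for all 36 synthetases in KO and WT cells, in monoculture and coculture, cytosolic and mitochondrial genes apart. KO monocultures span −1.83 (Qars) to 1.58 (Rars2), while no WT value passed the threshold.

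The effect of withdrawal in KO cells differed between coculture and monoculture for 27 synthetases, with a positive term for 6 and a negative term for 21, against 27.9% and 29.8% of all tested genes. Positive terms mark genes whose change was higher in coculture. In the cytosol these were Qars (1.59 ± 0.072, adjusted p = 1.09e-12), Cars (0.64 ± 0.052, adjusted p = 3.91e-09) and Rars (0.43 ± 0.094, adjusted p = 0.000728). The mitochondrial ones were Wars2 (0.90 ± 0.13, adjusted p = 7.18e-06), Fars2 (0.90 ± 0.13, adjusted p = 5.20e-06) and Pars2 (0.55 ± 0.15, adjusted p = 0.00451). Negative terms were furthest from 0 for Yars (−1.19 ± 0.058, adjusted p = 3.14e-12) and Aars (−1.03 ± 0.059, adjusted p = 3.28e-11). Lars (−0.76 ± 0.091, adjusted p = 6.70e-07) and Nars (−0.76 ± 0.077, adjusted p = 9.68e-08) followed. The mitochondrial negative terms were led by Rars2 (−1.17 ± 0.13, adjusted p = 2.64e-07), Lars2 (−1.12 ± 0.31, adjusted p = 0.00432) and Mars2 (−0.95 ± 0.11, adjusted p = 3.87e-07). The terms of Sars (−0.042, adjusted p = 0.572), Gars (−0.053, adjusted p = 0.476) and Sars2 (0.32, adjusted p = 0.148) did not pass.

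In SG-free medium, most synthetases differed between KO cocultures and KO monocultures. This comparison and withdrawal in KO monocultures share the SG-free KO monocultures, so values are given side by side without a test of their likeness. In SG-free KO cocultures against monocultures 10 synthetases were higher and 23 lower, where 35.0% of all tested genes were higher and 36.3% lower, and the median log2 change was −0.29 for cytosolic and −0.43 for mitochondrial genes, against −0.0064 for all tested genes. Qars averaged 33.4 ± 0.960 FPKM in SG-free KO cocultures and 11.6 ± 0.946 FPKM in SG-free KO monocultures (log2 change 1.45 ± 0.051, adjusted p = 4.40e-15). Cars (0.63 ± 0.037, adjusted p = 8.88e-12), Rars (0.50 ± 0.067, adjusted p = 1.46e-06) and Sars (0.15 ± 0.043, adjusted p = 0.00506) were higher too. Sars stood at 279.5 ± 8.03 FPKM in cocultures and 252 ± 2.66 FPKM in monocultures, a call that quantile normalization ended (0.025). Among cytosolic genes Yars was lowest relative to monoculture, at 27.7 ± 0.904 FPKM in SG-free KO cocultures and 71.2 ± 2.49 FPKM in SG-free KO monocultures (log2 change −1.33 ± 0.041, adjusted p = 6.31e-16). The next were Farsa (−0.91 ± 0.072, adjusted p = 1.02e-09), Aars (−0.89 ± 0.042, adjusted p = 3.44e-13) and Lars (−0.87 ± 0.064, adjusted p = 3.02e-10). Gars did not pass (−0.022, adjusted p = 0.67).

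Mitochondrial genes in the same comparison were led by Rars2, at 3.34 ± 0.311 FPKM in SG-free KO cocultures and 11.2 ± 0.463 FPKM in SG-free KO monocultures (log2 change −1.49 ± 0.091, adjusted p = 1.91e-11). Yars2 (−1.14 ± 0.084, adjusted p = 2.96e-10) and Mars2 (−1.13 ± 0.077, adjusted p = 9.86e-11) were lower as well. Wars2 (0.89 ± 0.091, adjusted p = 4.29e-08), Fars2 (0.86 ± 0.088, adjusted p = 4.11e-08) and Sars2 (0.53 ± 0.13, adjusted p = 0.00127) were higher. Lars2 was lower by limma (−1.06 ± 0.22, adjusted p = 0.000252), and its SG-free coculture libraries had 22.1, 9.28 and 14.5 FPKM against 31.6, 33.3 and 28.6 FPKM in SG-free KO monocultures. Among 17 pairs, both genes were higher in 2, both lower in 8 and opposite in 6, and pairs of other genes were not counted. Hnf4a averaged 38.0 FPKM in SG-free KO cocultures and 18.4 FPKM in SG-free KO monocultures, and the other 13 hepatocyte markers were under 1 FPKM in both groups, 9 of the 14 at 0. The part of these markers in the result was not tested.

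The other culture comparisons had fewer calls, over all tested genes as among the synthetases. SG-free WT cocultures against monocultures had 0 higher and 3 lower, where 14.9% of all tested genes were higher and 13.1% lower. The 3 were Rars2 (−0.45 ± 0.091, adjusted p = 0.000777), Hars2 (−0.37 ± 0.093, adjusted p = 0.00532) and Tars2 (−0.35 ± 0.068, adjusted p = 0.000621). Of the 36, 8 had an unadjusted p under 0.05 there and voom called 3. Scaling to each library's summed reads, an alternative added after seeing the data, gave 0 higher and 6 lower. In +SG KO cocultures against monocultures 3 were higher and 9 lower, against 20.1% and 19.9% of all tested genes. Sars (0.19 ± 0.043, adjusted p = 0.00158), Aars (0.14 ± 0.042, adjusted p = 0.0133) and Iars2 (0.19 ± 0.047, adjusted p = 0.00289) were higher. Lower cytosolic genes were Farsb (−0.42 ± 0.072, adjusted p = 0.000104), Hars (−0.30 ± 0.06, adjusted p = 0.000519), Farsa (−0.25 ± 0.072, adjusted p = 0.00988) and Yars (−0.14 ± 0.041, adjusted p = 0.00877). Among mitochondrial genes Rars2 (−0.32 ± 0.091, adjusted p = 0.0083), Tars2 (−0.22 ± 0.068, adjusted p = 0.0146) and Yars2 (−0.21 ± 0.084, adjusted p = 0.0486) were lower, with Ears2. The cytosolic Qars was lower too. Without replicate 3 of the +SG KO cocultures 7 passed in place of 12, Rars2 (−0.23), Tars2 (−0.17) and Yars2 (−0.22) no longer among them. Calls also ended for Aars without replicate 2 of the +SG KO monocultures (0.12), Yars without replicate 1 of the +SG KO cocultures (−0.12) and Rars2 without replicate 1 of the +SG KO monocultures (−0.23). The adjusted p of Yars2 ran from 0.00919 to 0.175 over the alternatives. Quantile normalization gave 1 higher and 14 lower, with Sars at −0.039 in place of 0.19. Scaling to summed reads gave 1 higher and 11 lower, and ended the calls of Sars (0.11) and Aars (0.057).

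In +SG WT cocultures against monocultures 4 were higher and 4 lower, against 16.3% and 14.9% of all tested genes. Eprs (0.28 ± 0.087, adjusted p = 0.0174) and Iars (0.24 ± 0.069, adjusted p = 0.0107) led the higher ones, with Aars (0.19 ± 0.042, adjusted p = 0.00163) and Lars (0.18 ± 0.064, adjusted p = 0.0385). The phenylalanine beta chain Farsb (−0.23 ± 0.072, adjusted p = 0.0196) and Hars (−0.20 ± 0.06, adjusted p = 0.0133) were lower. Both mitochondrial calls, Rars2 (−0.42 ± 0.091, adjusted p = 0.00133) and Tars2 (−0.36 ± 0.068, adjusted p = 0.000408), were lower too. Without replicate 3 of the +SG WT monocultures or replicate 1 of the +SG WT cocultures 5 passed in place of 8. Farsb and Hars were lost in each case (−0.22 and −0.16, then −0.22 and −0.18). Eprs was lost without replicate 1 of the +SG WT monocultures (0.27) or replicate 2 of the +SG WT cocultures (0.25), and the adjusted p of Lars ran from 0.00441 to 0.241. Quantile normalization gave 2 higher and 6 lower. Scaling to summed reads gave 0 higher and 10 lower, and ended the calls of Eprs (0.20), Iars (0.16), Aars (0.11) and Lars (0.096).

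Rars2 and Tars2 were lower with hepatocytes in each of the 4 culture comparisons, and all 4 Rars2 values and all 4 Tars2 values passed. Of all tested genes, 13.1% to 36.3% were lower per culture comparison, and the share lower in all 4 was not counted. The enzymes of serine and glycine did not pass in the remaining culture comparisons. Sars was 0.033 (adjusted p = 0.635) in SG-free and 0.024 (adjusted p = 0.722) in +SG WT cells. Gars was 0.094 (adjusted p = 0.118) in SG-free WT, 0.032 (adjusted p = 0.596) in +SG KO and 0.076 (adjusted p = 0.204) in +SG WT cells. Sars2 was −0.14 (adjusted p = 0.483), 0.21 (adjusted p = 0.214) and −0.086 (adjusted p = 0.669) in those same 3 comparisons. The effect of coculture in +SG medium differed between KO and WT for Lars alone by limma (−0.29 ± 0.091, adjusted p = 0.0476). There was 0 positive and 1 negative term against 4.98% and 5.39% of all tested genes, 4 with an unadjusted p under 0.05, and 0 called by voom. The Lars term missed the threshold without any 1 of 9 of the 12 libraries (adjusted p 0.0185 to 0.135 over the alternatives), and 2 synthetases passed without replicate 2 of the +SG KO monocultures. The same terms were 0.16 for Sars, −0.044 for Gars and 0.30 for Sars2 (adjusted p 0.0966, 0.689 and 0.34).

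KO and WT cells differed in every condition, with the widest range of log2 changes in SG-free monoculture (−1.81 to 1.53) and 29 synthetases past the threshold in each of the SG-free formats. In SG-free monoculture 19 synthetases were higher and 10 lower in KO than in WT, where 37.4% of all tested genes were higher and 36.3% lower. Yars averaged 71.2 ± 2.49 FPKM in KO and 24.02 ± 0.766 FPKM in WT (log2 change 1.53 ± 0.041, adjusted p = 6.61e-17). Lars (1.46 ± 0.064, adjusted p = 1.04e-13), Aars (1.26 ± 0.042, adjusted p = 1.61e-15) and Nars (1.10 ± 0.055, adjusted p = 6.96e-13) followed. Qars averaged 11.6 ± 0.946 FPKM in KO and 43.2 ± 1.72 FPKM in WT (log2 change −1.81 ± 0.051, adjusted p = 1.40e-16). Vars (−0.60 ± 0.15, adjusted p = 0.00135), Cars (−0.26 ± 0.037, adjusted p = 2.73e-06) and Rars (−0.17 ± 0.067, adjusted p = 0.0261) were lower too. Mitochondrial Rars2 (1.52 ± 0.091, adjusted p = 1.17e-11), Mars2 (0.73 ± 0.077, adjusted p = 4.46e-08) and Yars2 (0.72 ± 0.084, adjusted p = 2.05e-07) were higher in KO. Vars2 (−1.21 ± 0.14, adjusted p = 1.86e-07), Wars2 (−1.02 ± 0.091, adjusted p = 4.90e-09) and Pars2 (−0.91 ± 0.11, adjusted p = 3.17e-07) were lower. Sars was 0.19 ± 0.043, adjusted p = 0.000669, a call that quantile normalization ended (0.058), Sars2 −0.55 ± 0.13, adjusted p = 0.000855 and Gars, which did not pass, −0.086 ± 0.043, adjusted p = 0.0805. With scaling to summed reads Gars passed (−0.16). The Rars call was lost without replicate 2 (−0.13) or 3 (−0.16) of the KO or replicate 2 of the WT libraries (−0.14).

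In +SG monoculture 7 synthetases were higher and 9 lower in KO, against 21.5% and 21.1% of all tested genes. Iars (0.47 ± 0.069, adjusted p = 1.81e-05), Tars (0.43 ± 0.069, adjusted p = 5.14e-05), Eprs (0.40 ± 0.087, adjusted p = 0.000912) and Wars (0.39 ± 0.046, adjusted p = 1.11e-06) were higher. Kars (−0.34 ± 0.053, adjusted p = 3.31e-05), Farsa (−0.23 ± 0.072, adjusted p = 0.0126), Gars (−0.19 ± 0.043, adjusted p = 0.00153) and Mars (−0.19 ± 0.05, adjusted p = 0.00529) were lower. So were the mitochondrial genes Vars2 (−0.70 ± 0.14, adjusted p = 0.000435), Cars2 (−0.37 ± 0.078, adjusted p = 0.000695) and Nars2 (−0.29 ± 0.089, adjusted p = 0.0139). Sars (0.075, adjusted p = 0.174) and Sars2 (0.20, adjusted p = 0.227) did not pass. Farsa was lost without replicate 1 of the KO (−0.17) or the WT libraries (−0.16), and Nars2 without replicate 3 of the KO (−0.25) or replicate 2 of the WT libraries (−0.21).

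In SG-free cocultures 13 were higher and 16 lower in KO, against 26.3% and 27.4% of all tested genes, 12 of the 13 being cytosolic. Lars (0.74 ± 0.064, adjusted p = 1.13e-08) and Iars (0.59 ± 0.069, adjusted p = 6.49e-07) had the highest cytosolic values. Wars (0.50 ± 0.046, adjusted p = 2.25e-08) and Tars (0.46 ± 0.069, adjusted p = 1.38e-05) were next, and Rars2 (0.48 ± 0.091, adjusted p = 0.0002) was the mitochondrial one. In the other direction Farsa (−0.63 ± 0.072, adjusted p = 4.77e-07), Vars (−0.40 ± 0.15, adjusted p = 0.0337), Qars (−0.37 ± 0.051, adjusted p = 5.04e-06) and Kars (−0.35 ± 0.053, adjusted p = 1.85e-05) were lower. Mitochondrial Vars2 (−1.03 ± 0.14, adjusted p = 4.29e-06), Cars2 (−0.56 ± 0.078, adjusted p = 7.08e-06) and Yars2 (−0.48 ± 0.084, adjusted p = 7.08e-05) were lower. Sars was higher (0.30 ± 0.043, adjusted p = 8.73e-06), Gars lower (−0.20 ± 0.043, adjusted p = 0.000618), and Sars2 did not pass (0.12, adjusted p = 0.463). The Vars call was lost without any 1 of 5 libraries, replicate 2 or 3 of KO or any WT replicate, with an adjusted p from 3.01e-05 to 0.199 over the alternatives.

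In +SG cocultures 8 were higher and 9 lower in KO, against 21.8% and 22.0% of all tested genes. Wars (0.41 ± 0.046, adjusted p = 4.69e-07), Cars (0.40 ± 0.037, adjusted p = 3.81e-08), Tars (0.32 ± 0.069, adjusted p = 0.000911) and Iars (0.30 ± 0.069, adjusted p = 0.00164) were higher. Also higher were both serine enzymes and the mitochondrial phenylalanine enzyme, Sars (0.24 ± 0.043, adjusted p = 0.000148), Sars2 (0.50 ± 0.13, adjusted p = 0.00403) and Fars2 (0.26 ± 0.088, adjusted p = 0.0216). Lower cytosolic genes here were Farsa (−0.38 ± 0.072, adjusted p = 0.000239), Kars (−0.32 ± 0.053, adjusted p = 5.73e-05), Gars (−0.23 ± 0.043, adjusted p = 0.000209) and Hars (−0.19 ± 0.06, adjusted p = 0.0127). Lower mitochondrial genes were Vars2 (−0.66 ± 0.14, adjusted p = 0.000703), Mars2 (−0.48 ± 0.077, adjusted p = 4.48e-05) and Nars2 (−0.46 ± 0.089, adjusted p = 0.000304). Hars was lost without replicate 1 of KO (−0.17) or replicate 3 of WT (−0.17). Fars2 was lost without replicate 1 of KO (0.19) or replicate 2 (0.22) or 3 (0.26) of WT. Quantile normalization gave 7 higher and 12 lower and ended the Sars call (0.087).

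Some genotype differences held in all 4 conditions. Iars, Tars, Wars and Yars were higher and Vars2 and Cars2 lower in KO every time, past the threshold. Of all tested genes, 21.5% to 37.4% were higher and 21.1% to 36.3% lower in KO per condition. The share alike in all 4 was not counted. Vars2, the valine enzyme of mitochondria, averaged 5.28 ± 1.37 FPKM in KO against 11.6 ± 0.0625 FPKM in WT SG-free cocultures, 4.84 ± 0.394 against 12.5 ± 0.383 in SG-free monocultures. With serine and glycine it averaged 6.43 ± 0.490 FPKM in KO against 10.8 ± 0.446 FPKM in WT cocultures and 7.54 ± 1.91 against 12.7 ± 0.265 in monocultures. Its KO libraries ran from 3.70 to 8.65 FPKM and its WT libraries from 10.2 to 12.97 FPKM, without overlap. Kars was lower in KO in 3 conditions and higher in SG-free monoculture (0.22 ± 0.053, adjusted p = 0.00118).

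**Figure D4:**
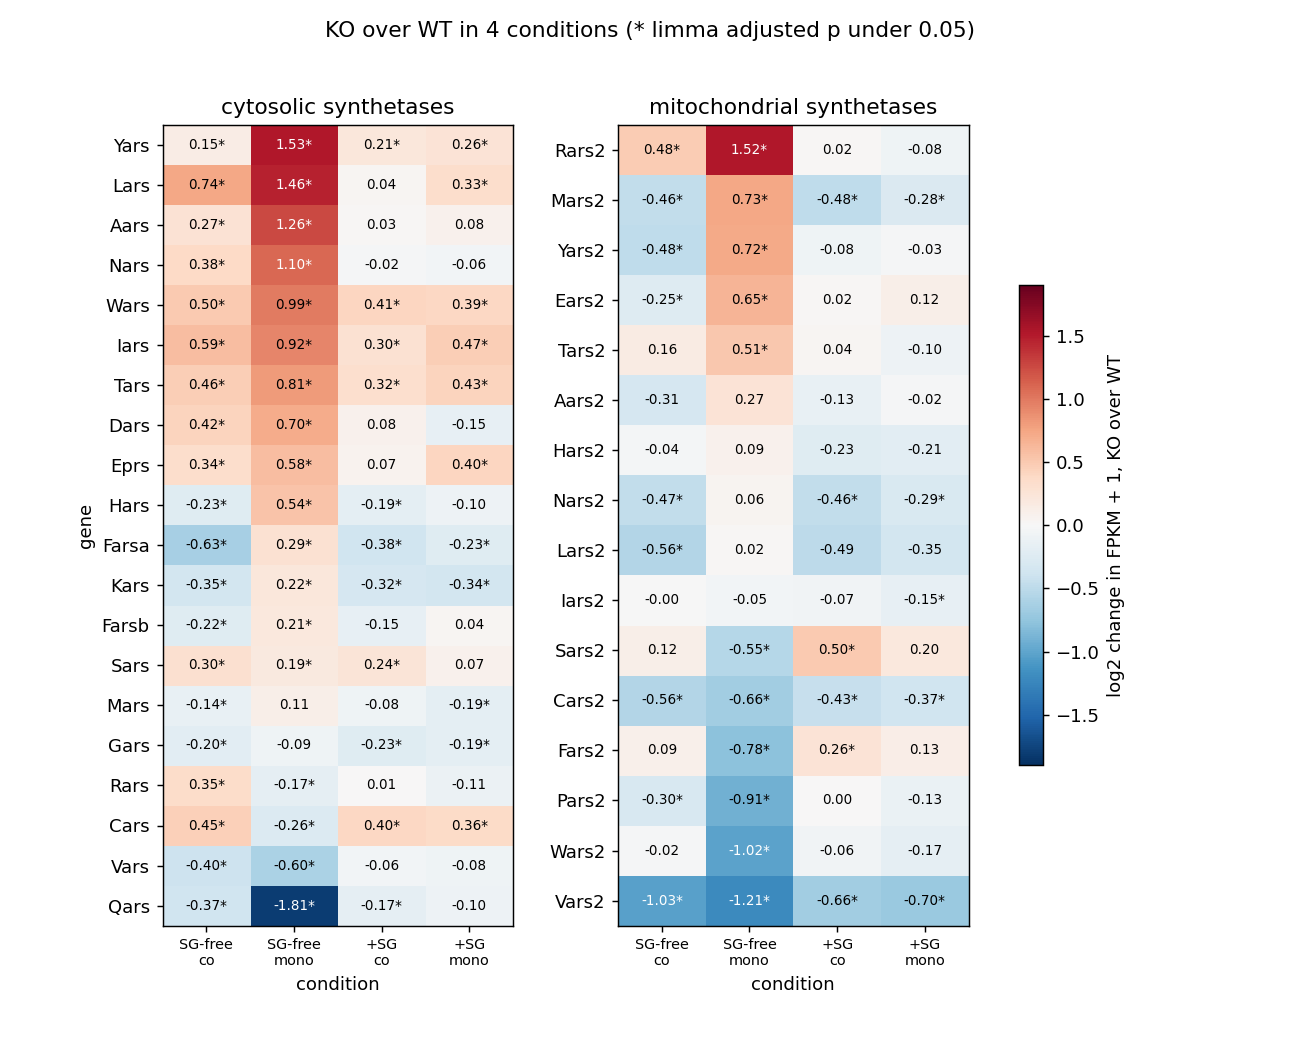
Log2 change of KO over WT (log2(FPKM + 1) scale) for all 36 synthetases in the 4 conditions, as a heat map in which an asterisk marks an adjusted p under 0.05. SG-free monoculture holds the widest range, −1.81 (Qars) to 1.53 (Yars), and Vars2 is lower in all 4 columns.

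Neighbouring steps of translation in the KO monoculture withdrawal comparison did not share 1 direction. Of all tested genes 36.2% rose and 34.5% fell there. Of 7 cytosolic elongation genes 1 rose and 6 fell, with a median log2 change of −1.15. Eef2, which translocates the ribosome, averaged 793 ± 61.5 FPKM in SG-free and 2446 ± 322 FPKM in +SG KO monocultures (log2 change −1.62 ± 0.083, adjusted p = 1.46e-12). Eef1a1, which delivers charged tRNA (−1.52 ± 0.044, adjusted p = 3.59e-16), and the Eef2 kinase Eef2k (−1.51 ± 0.078, adjusted p = 1.48e-12) fell, while Eif5a rose (1.19 ± 0.12, adjusted p = 3.02e-08). Of 9 mitochondrial translation genes 5 rose and 1 fell, with a median of 0.33. Among the rises were Mrrf, a ribosome recycling factor (0.77 ± 0.083, adjusted p = 8.29e-08), and the elongation factors Tufm (0.72 ± 0.11, adjusted p = 1.24e-05) and Tsfm (0.58 ± 0.15, adjusted p = 0.00174). Of 14 tested genes that assist charging, correct it or recycle tRNA, a list that also holds synthetases outside the 36, 6 rose and 3 fell, with a median of 0.15. Mtfmt, which formylates the mitochondrial initiator tRNA, fell (−0.65 ± 0.11, adjusted p = 1.78e-05). Gatc (0.80 ± 0.087, adjusted p = 9.31e-08) and Gatb (0.59 ± 0.10, adjusted p = 3.51e-05), subunits of the amidotransferase that completes mitochondrial glutaminyl-tRNA after Ears2, rose.

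A list of 24 Atf4 response genes that are no synthetases had 12 rises and 8 falls in the same comparison, against those shares of all tested genes, with a median of 0.28. Atf5, a transcription factor, rose (1.97 ± 0.28, adjusted p = 3.53e-06). Slc7a11, the cystine transporter (−2.43 ± 0.089, adjusted p = 1.01e-14), its partner Slc3a2 (−1.96 ± 0.082, adjusted p = 6.33e-14) and Pck2, a mitochondrial gluconeogenic enzyme (−1.82 ± 0.11, adjusted p = 1.36e-11), fell. On withdrawal in WT monocultures the median changes were −0.12 for the elongation list and −0.048 for the Atf4 response list. In SG-free KO cocultures against monocultures 5 elongation genes were higher and 1 lower, 0 mitochondrial translation genes higher and 7 lower, 9 Atf4 response genes higher and 11 lower, and all 3 scaffold genes lower, against 35.0% higher and 36.3% lower of all tested genes. Slc7a11 was at 2.85 and Aimp2 at −1.02 there.

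Aars shares 1326 bases (14.3% of its exonic length) with Exosc6 on the same strand, a gene listed at 0 FPKM. Other members share exonic sequence with a neighbour on the opposite strand, and no label says whether counting used strand, so reads there cannot be assigned with certainty. Fars2 shares 501 bases (8.72% of its exonic length) with Nrn1, which averaged 25.9 FPKM and had a log2 change of −1.92 in KO monoculture withdrawal, and 115 bases with Lyrm4 (1.44). Iars2 shares 22.9% with Rab3gap2 (0.45), Cars2 shares 5.83% with Naxd (−0.24), and Hars and Hars2 share 195 bases. Farsb shares 9.47% with Sgpp2 (0.627 FPKM), Vars2 shares 8.52% with Gm20483 (0.0227 FPKM) and Ears2 shares 1.73% with Ubfd1 (−0.33). Mars shares 68 bases with Ddit3 (126 FPKM, log2 change 0.72) and Yars shares 30 bases with C77080 (−1.05). The part of these overlaps in the values of these members was not tested.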

How the data were processed

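RNA sequencing of 24 libraries (8 groups, 3 each) was analysed. Per the labels' protocols, total RNA came from a column kit and libraries from a provider, and per the submitters' processing notes HISAT2 aligned the reads to GRCm38 (mm10). Its version, the counter, the annotation release and the use of strand were not stated. The authors deposited FPKM for 54532 genes. FPKM times gene length, divided by 1 step per library inferred from the low values, gave whole reads for 100% of values within 0.01 read. Other sample columns numbered 0.

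Here limma 3.58.1 (R 4.3.3) with an intensity trend was fitted on log2(FPKM + 1) to all 24 libraries with 1 mean per group (16 residual degrees of freedom). It covered the 12061 genes at 1 FPKM or more in 3 libraries or more, with Benjamini-Hochberg adjustment over all of them and a threshold of 0.05. In all, 12 comparisons of 2 groups and 4 interactions were tested. Error is SE for log2 changes and SD for FPKM. The fit was tested on simulated data with the same extra spread in every gene and group. The groups here differed in spread, which that test does not cover. The depth, from 15740081 to 23479425 reads per library, limits the low mitochondrial genes most.

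The members and lists were chosen with earlier results of these data known. Members are named where they passed without overlapping libraries, up to 4 cytosolic and 3 mitochondrial in each direction, with Sars, Gars and Sars2 always given, and up to 4 per other list, where 1 result is not reported here. Labels number the replicates without saying that cultures were separate, so p-values reflect only how far libraries differ within groups, possibly for technical reasons. That spread was pooled over all 8 groups, so a gene has the same SE in every comparison of 2 groups, also where its spread was unequal. For Vars the SD was 27.7% of the mean in +SG KO monocultures and 2.61% in +SG WT monocultures. Deviations of same-numbered libraries correlated at 0.40, 0.28 and 0.11 in the KO monoculture withdrawal comparison, and there the numbers were taken to pair the libraries. All 3 correlations were also positive, at no more than 0.14, in KO against WT SG-free cocultures. In coculture of +SG WT cells they were positive at no more than 0.053. They were negative, at −0.34, −0.26 and −0.0097, in SG-free KO cocultures against monocultures. In KO against WT +SG monocultures they were −0.20, −0.091 and −0.068. Such a correlation does not by itself show that cultures were shared. The main fit had no replicate block in any comparison. Alternatives were quantile and median-of-ratios scaling, a pseudocount of 0.1, no filter, a filter at 5 FPKM, scaling to summed reads (added later), voom on the recovered reads, a replicate block, fits of only the groups compared, and each replicate left out. Promoter and transcript annotation came from RefSeq (GRCm38.p6) and GENCODE, in which 33 of 36 members had the deposited position. Python 3.11.15 and matplotlib 3.10.9 were used for tables and plots.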

Additional observations from a re-analysis of the deposited data

Results flagged for a closer look

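The synthetases below are given because the difference between 2 responses was itself tested, as an interaction term, and passed. Values are differences between log2 changes by limma, with adjusted p-values in the report. The test for a single far value needs groups of at least 4 and was not run on these groups of 3. Libraries that differed most from their replicates are given in the report.

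The change on withdrawal in KO cells differed between coculture and monoculture for Qars (1.59), Cars (0.64), Rars (0.43), Wars2 (0.90), Fars2 (0.90) and Pars2 (0.55), where it was higher in coculture. It was lower in coculture for Yars (−1.19), Aars (−1.03), Lars (−0.76), Nars (−0.76), Rars2 (−1.17), Lars2 (−1.12) and Mars2 (−0.95).

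The change on withdrawal in monoculture differed between KO and WT cells for Yars (1.27), Aars (1.18), Nars (1.15), Lars (1.13), Rars2 (1.60), Mars2 (1.01) and Yars2 (0.75), where it was higher in KO. It was lower in KO for Qars (−1.71), Cars (−0.62), Vars (−0.52), Fars2 (−0.91), Wars2 (−0.85) and Pars2 (−0.78).

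In coculture the KO change exceeded the WT change for Lars (0.70), Nars (0.41), Dars (0.34), Rars (0.33) and Rars2 (0.46), and was below it for Yars2 (−0.40). The change with hepatocytes in +SG medium was lower in KO than in WT for Lars (−0.29).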

How the results depend on the processing

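Of 297 counts of synthetases recomputed under an alternative, 39 moved by more than 1.5 times, and of 144 named calls 108 were kept under every alternative tried while 36 were lost under at least 1, of which 1 was also reversed. Of 34 named values that did not pass, 11 passed under at least 1 alternative. Median-of-ratios factors of the deposited FPKM were equal in all 24 libraries (1.01), so that scaling could move nothing and says nothing about stability. Scaling to summed reads, added after seeing the data, gave 6 in place of 3 for coculture of SG-free WT cells, and moved no other count by over 1.5 times. With the replicate block, the KO monoculture withdrawal count, where the numbers were taken to pair the libraries, stayed at 31. It was also 31 with only those groups in the fit, where Vars (adjusted p = 0.0461) and Aars2 (adjusted p = 0.0127) passed. In the other comparisons the numbers were not taken to pair the libraries. There the block gave 0 in place of 1 for the difference between genotypes in the effect of coculture in +SG medium. It moved no other count by over 1.5 times.

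With only the groups of a comparison in the fit, the counts were 2 in place of 0 for WT monoculture withdrawal, 5 in place of 9 for KO coculture withdrawal, and 8 in place of 3 for coculture of SG-free WT cells. They were 2 in place of 12 for coculture of +SG KO cells, 9 in place of 16 for KO against WT in +SG monoculture and 0 in place of 1 for the genotype difference in the +SG coculture effect. That last count was also 0 with no filter and with voom, and with no filter the genotype difference in coculture withdrawal had 4 in place of 7. Quantile normalization gave 6 in place of 3 for coculture of SG-free WT cells, and reversed Sars in that comparison (−0.16 against 0.033), and Sars (−0.039) and Gars (−0.16) in coculture of +SG KO cells, where the values were 0.19 and 0.032. The cause was not tested. With replicate 1 of both KO monocultures and of the SG-free KO cocultures left out, added after seeing the data, the counts were 18 for KO coculture withdrawal, 1 for WT coculture withdrawal and 9 for coculture of SG-free WT cells. They were 17 for the genotype difference in coculture withdrawal and 3 for that in the +SG coculture effect. With replicate 2 of the SG-free KO cocultures left out in place of replicate 1, they were 1 for WT coculture withdrawal, 8 for coculture of SG-free WT cells, 13 for coculture of +SG WT cells and 3 for the genotype difference in the +SG coculture effect.

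Leaving out 1 library at a time gave counts of 29 to 32 for KO and 0 for WT monoculture withdrawal, 6 to 14 for KO and 0 for WT coculture withdrawal. For coculture they were 31 to 33 in SG-free KO, 3 in SG-free WT, 7 to 12 in +SG KO and 5 to 8 in +SG WT cells. The same gave 28 to 30 for KO against WT in SG-free monoculture, 14 to 17 in +SG monoculture, 24 to 28 in SG-free coculture and 16 to 18 in +SG coculture. Interaction counts were 25 to 28 for withdrawal by coculture in KO, 23 to 30 for genotype by withdrawal in monoculture, 3 to 9 in coculture and 0 to 2 for genotype by coculture in +SG medium. Depth limits Pars2, Mars2, Nars2 and Cars2, the genes near 1 FPKM, where the log2(FPKM + 1) scale understates changes, and 7985 genes passed a filter at 5 FPKM.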

Other observations

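Lars2 was lowest of all 24 libraries in a pair of KO libraries, at 9.28 FPKM in replicate 2 of the SG-free KO cocultures and 13.7 FPKM in replicate 1 of the +SG KO monocultures. Gm23935, a gene of deposited biotype miRNA, was also lowest there, at 1374 and 3158 FPKM, against 6105 to 32340 FPKM (median 20891) in the other 22 libraries.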
